A study of Mus musculus with 24 samples.

Results

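Smooth muscle and mural cell genes were followed in cultured fat cells: 7 genes of the smooth muscle contractile apparatus (Acta2, Actg2, Tagln, Cnn1, Cnn2, Mylk, Myh11) and 3 genes that mark pericytes and other mural cells (Mcam, Abcc9, Rgs5). Every probe set whose single annotated symbol is one of these 10 genes was taken, which gave 11 of the 12488 probe sets of the Affymetrix U74Av2 array. One probe set stood for each gene, apart from 2 for Rgs5. Of the 11, 10 passed the filter on low signal and were among the 8397 probe sets tested, and the second Rgs5 probe set (96180_at) did not pass.

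The cells were mouse adipocytes in primary culture, studied to compare pre- and mature adipocytes of brown and white fat. There were 5 arrays of brown cells at day 7, 5 of brown cells at day 4, 6 of white cells at day 7 and 8 of white cells at day 4. The labels call day 7 differentiated and day 4 not differentiated, and they give no genotype, strain, sex, donor age or agent. An array goes by its group and its label number. Since the labels do not tie arrays to animals or cultures, p-values here cover the spread between arrays alone, and that spread may be technical. All brown arrays carry lower numbers than the white arrays, so handling and cell type cannot be told apart.

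Smooth muscle shortens when myosin, whose smooth muscle heavy chain is encoded by Myh11, pulls on filaments of smooth muscle actin. Calcium and calmodulin switch this on through myosin light chain kinase, and actin-binding proteins such as transgelin and the calponins sit on the thin filaments. Serum response factor and its partners of the myocardin family drive many of these genes through the CArG box, and cultured fibroblasts turn part of the same programme on when they become myofibroblasts. Pericytes are the mural cells of small vessels, and fat stroma is rich in both vessels and fibroblasts.

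The promoters of Acta2 and Cnn2 are shown because they carry letters of the CArG box in a window from 250 bases before the gene's start to 50 after it (RefSeq, mouse assembly GRCm38.p6, each printed on the gene's own strand). The Acta2 window lies at chr19:34255324-34255623 on the minus strand and the Cnn2 window at chr10:79988350-79988649 on the plus strand. Capitals mark each match with up to 1 letter different from the motif, which reads the same on both strands.
Acta2: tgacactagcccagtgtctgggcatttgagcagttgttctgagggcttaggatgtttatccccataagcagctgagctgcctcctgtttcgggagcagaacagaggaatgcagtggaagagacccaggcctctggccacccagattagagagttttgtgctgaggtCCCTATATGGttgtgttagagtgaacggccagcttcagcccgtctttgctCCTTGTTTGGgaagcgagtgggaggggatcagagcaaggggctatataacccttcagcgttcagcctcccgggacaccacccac
Cnn2: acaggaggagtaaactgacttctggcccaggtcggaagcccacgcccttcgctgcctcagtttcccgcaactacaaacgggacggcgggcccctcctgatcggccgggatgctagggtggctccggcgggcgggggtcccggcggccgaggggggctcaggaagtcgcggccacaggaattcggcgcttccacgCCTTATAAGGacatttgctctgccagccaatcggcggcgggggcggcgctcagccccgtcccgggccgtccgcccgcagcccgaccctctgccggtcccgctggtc
The Cnn2 window held 1 exact match, which began 56 bases before the start. The Acta2 window held 2 matches with 1 letter different, which began 84 and 34 bases before the start. Windows were at hand for 7 of the 10 genes, and those of Cnn1, Mylk, Mcam, Abcc9 and Rgs5 held neither kind of match. Among all 32851 mouse windows of this length, 1.63% held an exact match and 21.1% a match with up to 1 letter different. The letters are a description and not evidence of binding. Neither gene passed the test between days in either cell type, as their values below show.

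By rank, several arrays stood apart in these genes. A check of the gap between the extreme array and its neighbour, over the group's range, flagged 0 of 42 sets of 1 probe set in 1 group. That check looks at 1 array at a time. White day 7 arrays 43 and 44 were the lowest 2 of 6 in all 7 contractile genes. Without both, a choice made after seeing the data, 5 of the 10 genes passed between days in brown and 4 in white cells. Between brown and white 8 passed at day 7 and 6 at day 4. Over the whole array that fit called 983, 1096, 1843 and 1873 of 8397 probe sets in these comparisons, in the same order. Of the brown against white calls at day 7, Mcam at 0.48 (log2; limma adjusted p = 0.104) and Rgs5 at 0.79 (adjusted p = 0.0749) were lost, and Acta2 at -0.64 (adjusted p = 0.0413) was gained. Brown day 7 array 22 was the highest of 5 in 6 of the 7 contractile genes and the lowest in all 3 mural genes. RNA integrity was read from Gapdh, whose signal at the 3' end over that at the 5' end grows when RNA is degraded. That ratio averaged 0.889 ± 0.0379 in brown day 7, 0.884 ± 0.0825 in brown day 4, 1.36 ± 0.204 in white day 7 and 0.943 ± 0.0955 in white day 4 arrays (SD, n = 5, 5, 6 and 8). It therefore moved with white day 7, and for the 10 genes values with the ratio in the fit are given where it ends a call. For the gene lists counts or adjusted p are given. Adipoq, the fat cell hormone adiponectin, checked the labelled stage and had a signal of 4772 to 6306 in brown day 7, 1169 to 4959 in brown day 4, 4611 to 6336 in white day 7 and 732 to 3099 in white day 4 arrays.

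In brown cells, 5 of the 10 genes had a higher signal at day 7 than at day 4 and 0 had a lower one. They were Myh11, Tagln and Mylk of the contractile genes and Abcc9 and Mcam of the mural genes, with folds of 5.06, 1.79, 1.45, 3.62 and 2.20. Over the whole array 12.1% of the 8397 probe sets passed the test in this comparison, 6% higher and 6.05% lower. The median log2 difference was 0.73 over the 10 genes, against 0.01 over all probe sets tested. The same 5 genes had groups that did not overlap, as had 9.73% of all probe sets. In bulk RNA, fewer cells of a type and less RNA per cell cannot be told apart, and this holds for every difference given here.

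In white cells, 4 of the 10 genes had a higher signal at day 7 than at day 4 and 0 had a lower one. Myh11, Actg2 and Cnn1 were contractile genes, with folds of 8.05, 2.21 and 2.04, and Mcam was a mural gene, with a fold of 1.96. On the whole array 19% of probe sets passed, 8.36% higher and 10.6% lower. The median log2 difference was 0.37 over the 10 genes and 0.01 over all probe sets tested. Myh11 and Mcam did not overlap between days, nor did 4.79% of all probe sets. With the Gapdh ratio in the fit 0 of the 10 genes passed in limma, 4 had an unadjusted p under 0.05, and 37 probe sets of the whole array passed, against 1595 without it.

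At day 4, 5 of the 10 genes were lower in brown than in white cells and 0 were higher. All 5 were contractile: Cnn1, Mylk, Myh11, Tagln and Cnn2, with folds of 8.22, 4.49, 3.72, 2.67 and 1.70. The whole array had 23% of probe sets past the test, 10.8% higher and 12.2% lower. The median log2 difference was -1.42 over the contractile genes and -0.03 over the mural genes. Cnn1, Mylk and Tagln did not overlap between brown and white, and neither did 7.29% of all probe sets.

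At day 7 the 2 kinds of gene took opposite directions. In brown cells 6 of the 7 contractile genes were lower than in white cells, all but Acta2, and the 3 mural genes were all higher. Whole-array calls made up 25.2% of probe sets, 12.8% higher and 12.3% lower. The median log2 difference was -1.30 over the contractile genes and 0.81 over the mural genes. Brown and white did not overlap for Tagln, Cnn1, Mylk, Myh11 and Abcc9, nor for 18.1% of all probe sets. With the Gapdh ratio in the fit 4 of the 10 genes passed, namely Cnn1, Mylk and Tagln, which were lower in brown cells, and Mcam, which was higher. That fit called 274 probe sets of the whole array, against 2112 without it.

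**Figure D1:**
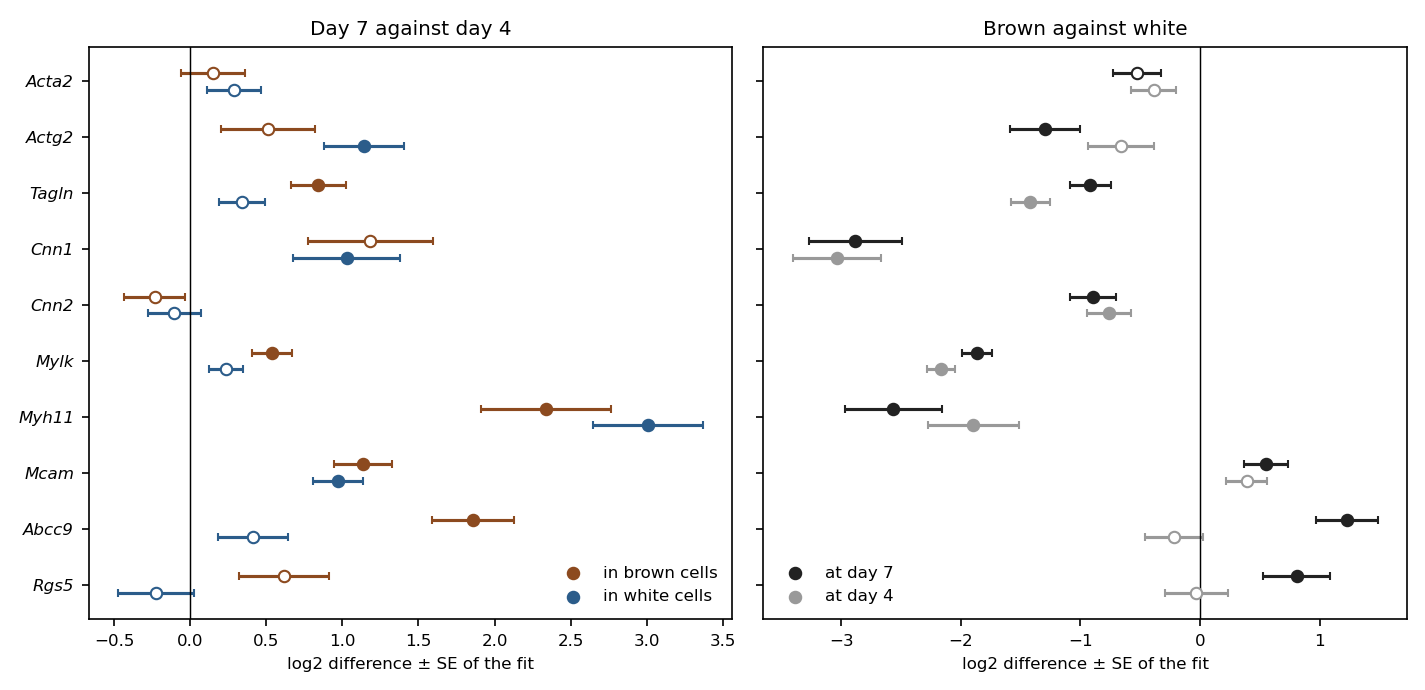
Log2 difference of each gene with the standard error of the fit, for day 7 against day 4 (left; brown cells above white cells) and brown against white (right; day 7 above day 4). Filled points passed the adjusted p threshold of 0.05 and open points did not; the contractile genes lie mostly left of 0 in the right panel and the mural genes right of 0 at day 7.

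Whether a gene changed by different amounts between days in brown and in white cells was tested directly. None of the 10 genes passed limma's test of this interaction, 3 had an unadjusted p under 0.05 (Abcc9, Rgs5 and Tagln), and 0.214% of all probe sets passed, 0.167% with a higher and 0.0476% with a lower difference between days in brown than in white cells. Abcc9 had the smallest adjusted p among them, with a brown minus white difference of 1.45 ± 0.35 (SE, log2) and an adjusted p of 0.0952. Abcc9 passed under 3 of 33 alternatives. Among these were signals floored at the 40th percentile (limma adjusted p = 0.00501) and array weights (adjusted p = 0.0131). Sets of array numbers as a random block gave the other pass (adjusted p = 0.0478). On most brown day 4 and most white arrays Abcc9 lay below the 40th percentile of its array. That floor therefore narrows the spread within these groups, and the adjusted p under it depends on the floor. Genes that passed between days in 1 cell type only are therefore not shown to differ between the cell types.

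Among the actins, Acta2 did not pass in any comparison and Actg2 passed in both comparisons of 2 groups that hold white day 7. Acta2 (probe set 93100_at) encodes smooth muscle alpha-actin, the thin filament actin of vascular smooth muscle and of myofibroblasts. Its signal was 1761, 1471, 1911, 2306 and 2873 on brown day 7 arrays 07, 08, 11, 12 and 22, against 1573, 1519, 1859, 1894 and 2336 on brown day 4 arrays 05, 06, 09, 10 and 19. White day 7 arrays ran from 2345 to 3609 with a median of 2877, and white day 4 arrays from 1687 to 3558 with a median of 2119. The groups overlapped in each comparison, and array 22 was the highest of the brown day 7 arrays. The brown minus white difference at day 7 was -0.53 ± 0.20 (SE, log2; limma adjusted p = 0.054). It passed under 8 of 22 alternatives, among them without brown day 7 array 22 (adjusted p = 0.0209), without white day 7 array 44 (adjusted p = 0.0426) and with quantile normalization (adjusted p = 0.00962). The day 7 minus day 4 difference in brown cells was 0.15, with a 95% interval of -0.28 to 0.58. In white cells it was 0.29, with an interval of -0.08 to 0.65.

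Actg2 encodes smooth muscle gamma-actin, which is typical of visceral smooth muscle. Its probe set (93102_f_at) has the name suffix for sequences shared within a gene family, so it may also bind transcripts of other actins. Its signal was 236, 340, 303, 384 and 540 on the brown day 7 arrays and 209, 221, 195, 293 and 325 on the brown day 4 arrays, in the order of array numbers above. In white cells it was 444 to 1275 at day 7 (median 1027), against 207 to 741 at day 4 (median 340). The groups overlapped in each comparison, and the 2 lowest white day 7 arrays were 43 and 44. Actg2 rose by 1.14 ± 0.26 (SE, log2; limma adjusted p = 0.00347) between days in white cells. It was lower in brown cells at day 7, by -1.30 ± 0.29 (adjusted p = 0.00184). With the Gapdh ratio in the fit these values were 1.40 (adjusted p = 0.154) and -1.59 (adjusted p = 0.0876). In brown cells the difference between days was 0.51 ± 0.31 (adjusted p = 0.317). The difference between brown and white cells at day 4 was -0.66 ± 0.28 (adjusted p = 0.0849), and passed only without white day 4 array 33 (adjusted p = 0.0351) or without white day 7 arrays 43 and 44 (adjusted p = 0.049).

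Myh11 (97990_at), the smooth muscle myosin heavy chain and the most specific marker of mature smooth muscle among these genes, had the largest day 7 against day 4 differences of the 10 in both cell types, a rank that depends on the floor in brown cells. Its signal was 42.5, 63.4, 55.5, 69.6 and 51.1 on the brown day 7 arrays, against 3.21, 2.59, 10.7, 15.9 and 13.9 on the brown day 4 arrays. White day 7 arrays ran from 160 to 534 (median 382) and white day 4 arrays from 12.7 to 113 (median 45.2). Day 7 and day 4 did not overlap in either cell type, and brown and white did not overlap at day 7. Brown day 4 arrays 05 and 06 lay under the floor of 8.21, to which low signals were set before log2 was taken. Myh11 rose by 2.34 ± 0.43 (SE, log2; limma adjusted p = 0.000697) in brown cells and by 3.01 ± 0.36 (adjusted p = 9.3e-06) in white cells. It was lower in brown cells by -2.57 ± 0.41 at day 7 (adjusted p = 3.97e-05) and by -1.90 ± 0.38 at day 4 (adjusted p = 0.000698). The size of the differences that hold brown day 4 depends on the floor. With the floor at the 40th percentile they were 0.94 between days in brown cells (adjusted p = 0.066) and -0.71 between brown and white at day 4 (adjusted p = 0.0935), and with no floor 2.94 and -2.50. Abcc9 had the largest difference between days in brown cells with that higher floor, at 1.33, against 1.86 in the main fit. Its size thus depends on the floor too. With the Gapdh ratio in the fit the rise of Myh11 in white cells was 2.66 (adjusted p = 0.0507). The day 7 difference of Myh11 between brown and white was then -2.17 (adjusted p = 0.092).

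Mylk (93482_at) encodes myosin light chain kinase, which phosphorylates the regulatory light chain of myosin when calmodulin binds calcium. It had the smallest adjusted p of the 10 genes in both brown against white comparisons. Its signal was 521, 598, 479, 582 and 638 on the brown day 7 arrays and 441, 371, 396, 305 and 437 on the brown day 4 arrays. In white cells it ran from 1744 to 2289 at day 7 (median 2145), against 1266 to 2140 at day 4 (median 1790). Every brown array lay below every white array, and the 2 brown groups did not overlap. Mylk was lower in brown cells by -1.86 ± 0.13 (SE, log2; limma adjusted p = 4.33e-11) at day 7 and by -2.17 ± 0.12 (adjusted p = 4.45e-13) at day 4. It rose by 0.54 ± 0.13 (adjusted p = 0.00746) between days in brown cells, where the lowest day 7 and the highest day 4 signals lay close together. In white cells the difference was 0.24 ± 0.11 (adjusted p = 0.147).

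The actin-binding proteins Tagln, Cnn1 and Cnn2 were all lower in brown than in white cells on both days. Tagln (93541_at), or SM22-alpha, is an early marker of smooth muscle that myofibroblasts also make. Its signal was 1310, 1618, 1618, 1907 and 2446 on the brown day 7 arrays, against 817, 1215, 934, 1052 and 888 on the brown day 4 arrays. White arrays ran from 2569 to 3814 at day 7 (median 3418) and from 1849 to 3599 at day 4 (median 2559). The brown groups did not overlap each other, and neither overlapped the white group of the same day. Tagln rose by 0.84 ± 0.18 (SE, log2; limma adjusted p = 0.00244) in brown cells. The difference in white cells was 0.34 ± 0.15 (adjusted p = 0.121), and passed with quantile normalization (adjusted p = 0.0461). Tagln was lower in brown cells by -0.92 ± 0.17 at day 7 (adjusted p = 0.000282) and by -1.42 ± 0.16 at day 4 (adjusted p = 3.17e-07).

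Cnn1 (99942_s_at), basic calponin, binds actin and restrains the myosin motor in smooth muscle. The suffix of its probe set marks a sequence that several transcripts can share. Its signal was 42.2, 26.4, 62.4, 66.9 and 97.9 on the brown day 7 arrays and 26.3, 20.5, 20.2, 52.4 and 13.1 on the brown day 4 arrays. White day 7 arrays ran from 238 to 565 (median 441), against 74.2 to 466 (median 208) for white day 4. All brown arrays lay below the white arrays of the same day, while day 7 and day 4 overlapped in both cell types. Cnn1 had the largest brown against white differences of the 10 genes, at -2.88 ± 0.39 (SE, log2; limma adjusted p = 4.75e-06) at day 7 and -3.04 ± 0.37 (adjusted p = 9.35e-07) at day 4. At day 7 the difference was -4.02 with the Gapdh ratio in the fit (adjusted p = 0.000318). Some brown day 4 signals lay near the floor, and over the alternatives the day 4 difference ran from -3.33 to -2.58. Between days it rose by 1.03 ± 0.35 (adjusted p = 0.0396) in white cells, a call that was lost without any 1 of 8 arrays (35, 36, 39 and 40 of white day 7 and 33, 37, 41 and 42 of white day 4, adjusted p from 0.0501 to 0.0888). It was 2.02 with the Gapdh ratio (adjusted p = 0.0924) and was also lost with no filter on low signal (adjusted p = 0.0861). In brown cells the difference was 1.18 ± 0.41 (adjusted p = 0.0587), and passed under 4 of 21 alternatives, among them without brown day 7 array 08 (adjusted p = 0.0307) or brown day 4 array 10 (adjusted p = 0.0221).

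Cnn2 (94004_at), the calponin found in many cell types beside muscle, was the only 1 of the 10 genes whose difference between days was below 0 in both cell types. Its signal was 257, 225, 349, 399 and 571 on the brown day 7 arrays, against 321, 314, 405, 420 and 605 on the brown day 4 arrays. White arrays ran from 546 to 701 at day 7 (median 642) and from 554 to 933 at day 4 (median 666). Each brown group overlapped its white counterpart at 1 end, through brown day 7 array 22 and brown day 4 array 19. Cnn2 was lower in brown cells by -0.89 ± 0.19 at day 7 (SE, log2; limma adjusted p = 0.00116) and by -0.76 ± 0.18 at day 4 (adjusted p = 0.003). The day 7 value was -0.98 with the Gapdh ratio in the fit (adjusted p = 0.111). Between days the difference was -0.23 in brown cells, with a 95% interval of -0.65 to 0.18, and -0.10 in white cells, with an interval of -0.46 to 0.25.

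**Figure D2:**
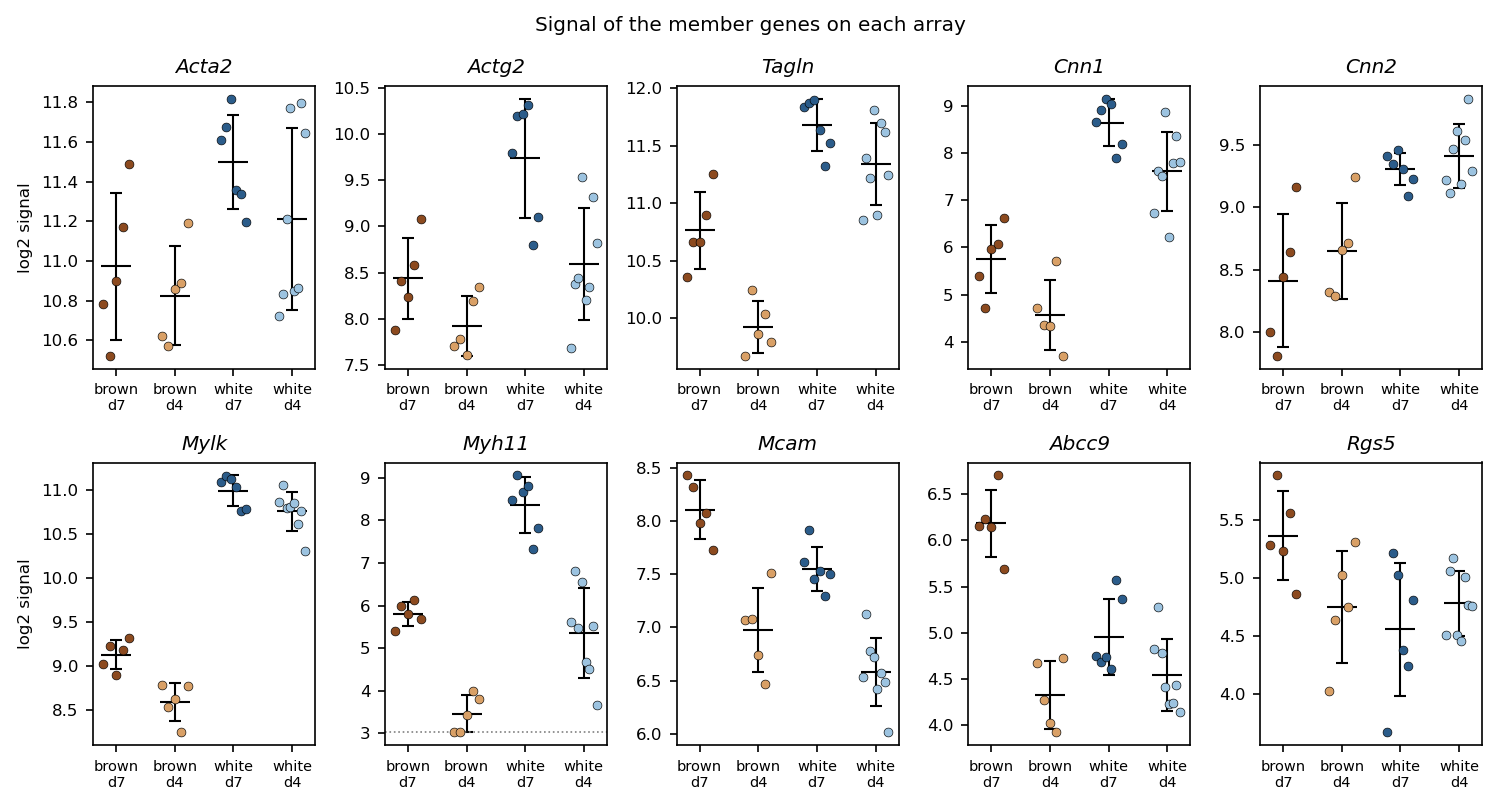
Signal of each gene on a log2 scale, 1 point per array, for brown cells (5 arrays at day 7, 5 at day 4) and white cells (6 at day 7, 8 at day 4); each panel has its own axis, bars give mean ± SD, and the dotted line in the Myh11 panel is the floor. For Rgs5 the tested probe set is drawn; Mylk and Tagln are lower in brown than in white cells on both days, while Abcc9 is highest in brown day 7.

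The mural genes took another order, with brown day 7 the highest group for all 3. Mcam (160458_at) encodes CD146, an adhesion molecule of pericytes, smooth muscle and endothelium. Its signal was 345, 320, 253, 270 and 212 on the brown day 7 arrays and 135, 135, 107, 88.2 and 183 on the brown day 4 arrays. White arrays ran from 157 to 241 at day 7 (median 183), against 64.6 to 140 at day 4 (median 93.9). Day 7 lay above day 4 without overlap in both cell types, while brown and white overlapped on both days. Mcam rose by 1.14 ± 0.19 (SE, log2; limma adjusted p = 0.000379) in brown cells and by 0.97 ± 0.16 (adjusted p = 0.000362) in white cells. The rise in white cells was 0.52 with the Gapdh ratio in the fit (adjusted p = 0.427).

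Mcam was also higher in brown cells at day 7, by 0.56 ± 0.18 (limma adjusted p = 0.028), and this was 1.07 with the Gapdh ratio (adjusted p = 0.047). The call was lost without brown day 7 array 07 (adjusted p = 0.0883) or 08 (adjusted p = 0.0731), and without white day 7 array 39 (adjusted p = 0.0526) or 43 (adjusted p = 0.0591). Its day 4 difference was 0.39 ± 0.17 (adjusted p = 0.11), and passed without brown day 4 array 10 (adjusted p = 0.0408) and with the Gapdh ratio (adjusted p = 0.0464). Endothelial cells make Mcam too, and 6 of 10 tested endothelial markers were higher in brown than in white cells at day 7, with 1 lower. Fitted with the Gapdh ratio, 5 of the 10 passed in that comparison, against 7 without it. Summed signal of those 10 was 2014 to 2680 in brown day 7, 1968 to 3342 in brown day 4, 1519 to 1941 in white day 7 and 1458 to 2232 in white day 4 arrays. Much of that sum was Eng, an endothelial TGF-beta co-receptor, with a geometric mean signal of 1008 in brown day 7 and 1592 in brown day 4 arrays, and it fell by 0.66 between those days (adjusted p = 0.00536). Sox18 and Tie1 rose by 0.67 (adjusted p = 0.00691) and 0.95 (adjusted p = 0.0273) between days in brown cells, where the median over the 10 markers was 0.57, and these 3 genes were named after their values were seen. Among their defining genes, Cdh5 and Pecam1 were above the floor on all arrays, and Kdr was under it on 1 brown day 7, 1 brown day 4 and 2 white day 7 arrays. Their part in the Mcam result was not tested.

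Abcc9 (97172_s_at) encodes SUR2, the sulphonylurea receptor that regulates the potassium channels of muscle and of pericytes. Its probe set carries the same suffix as that of Cnn1. Its signal was 71.1, 74.9, 70.7, 104 and 51.4 on the brown day 7 arrays, against 25.5, 19.3, 16.3, 15.2 and 26.5 on the brown day 4 arrays. In white cells it ran from 24.4 to 47.6 at day 7 (median 26.8) and from 17.7 to 38.7 at day 4 (median 21.5). Every brown day 7 array lay above every array of the other 3 groups, which overlapped each other. Abcc9 rose by 1.86 ± 0.27 (SE, log2; limma adjusted p = 0.000108) in brown cells, and the difference in white cells was 0.41 ± 0.23 (adjusted p = 0.225). At day 7 it was higher in brown than in white cells by 1.23 ± 0.26 (adjusted p = 0.000919), or by 1.55 with the Gapdh ratio (adjusted p = 0.0541). At day 4 the difference was -0.22 ± 0.24 (adjusted p = 0.567).

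Striated muscle also makes Abcc9, and 3 of 11 tested striated muscle markers were higher in brown than in white cells at day 7, with 1 lower. Of all probe sets tested, 12.8% were higher and 12.3% lower there. The lower marker was Des, which is also in the list of smooth muscle contractile genes. Fitted with the Gapdh ratio, 0 of the 11 passed in that comparison, against 4 without it. Between days in brown cells 1 of the 11 was higher and 3 were lower. Their summed signal was 1003 to 1444 in brown day 7 and 1478 to 2745 in brown day 4 arrays. In white cells it was 788 to 1349 at day 7 and 635 to 1084 at day 4. Actc1, cardiac actin, entered that sum through a family probe set (101029_f_at), which may also bind other actins. Its median signal there was 429 in brown day 7, 700 in brown day 4, 593 in white day 7 and 398 in white day 4 arrays. On its other probe set (101028_i_at) the medians were 75.1, 261, 8.04 and 5.53 in the same order. The marker that was higher between days in brown cells was Mb, which encodes myoglobin, at 30.3 to 143.6 in brown day 7, against 4.65 to 36.9 in brown day 4 arrays. The part of striated muscle in the Abcc9 result was not tested.

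Rgs5 encodes a regulator of G protein signalling that is widely used as a pericyte marker. The tested probe set (103294_at) had a signal of 39, 59.1, 37.5, 47.3 and 29.0 on the brown day 7 arrays and 16.2, 24.8, 32.6, 26.9 and 39.6 on the brown day 4 arrays. White arrays ran from 12.7 to 37.1 at day 7 (median 24.4), against 21.9 to 36.1 at day 4 (median 27.1). All groups overlapped. Rgs5 was higher in brown than in white cells at day 7, by 0.81 ± 0.28 (SE, log2; limma adjusted p = 0.0352). It kept the call under 11 of 21 alternatives. The call was lost without any 1 of 6 arrays (07, 08 and 12 of brown day 7 and 35, 40 and 43 of white day 7, adjusted p from 0.0563 to 0.107) and with the Gapdh ratio (1.02, adjusted p = 0.303). It was also lost with only the day 7 groups in the fit (adjusted p = 0.0576) and with the sets of array numbers as a random block (adjusted p = 0.0855). Between days the difference was 0.62 ± 0.29 in brown cells (adjusted p = 0.188) and -0.22 ± 0.25 in white cells (adjusted p = 0.581).

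The second Rgs5 probe set (96180_at) was near background. Its signal was 2.64, 16.2, 13.5, 13.4 and 17.1 on the brown day 7 arrays, against 1.87 to 3.75 on the brown day 4 arrays, all 5 of which lay under the floor. All 6 white day 7 arrays and 6 of 8 white day 4 arrays also lay under it. With no filter its brown against white difference at day 7 was 0.69 ± 0.22 (SE, log2; limma adjusted p = 0.0318), a size that depends on the floor.

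The labels name no batch and do not say what the array numbers mean. The numbers run without a break over brown arrays 05 to 12 and white arrays 33 to 45, with pairs of day 4 and day 7 arrays in turn up to 44. For a description these were divided into 2 brown and 3 white sets of 4 neighbouring numbers, each with 2 arrays of each day. Brown arrays 22 (day 7) and 19 (day 4), whose numbers are not adjacent, were set against each other as a further pair. This division was a choice of the analysis and not a batch that the labels give, and no set held both cell types. Myh11 was higher at day 7 by 2.66 and 2.25 (log2) in the 2 brown sets, by 1.88 in the brown pair and by 2.55 to 2.98 in the 3 white sets. Mcam was higher by 1.30 and 1.43 in the brown sets and by 0.22 in the pair, and by 0.74 to 0.93 in the white sets. Tagln, Cnn1, Mylk, Acta2 and Actg2 were also higher at day 7 in all 5 sets and in the pair. Abcc9 was higher by 1.72 and 2.45 in the brown sets and by 0.96 in the pair, and was higher in 2 of 3 white sets. Rgs5 was higher by 1.26 and 0.51 in the brown sets, but its difference was -0.45 in the pair, and it was higher in 0 of 3 white sets. Cnn2 was higher in 1 of 3 white sets, and its difference was below 0 in both brown sets and the pair.

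Beyond the group means, most of the contractile genes varied together from array to array. Each gene's group mean was subtracted and Pearson's r was taken over the 24 arrays, as a description only, since arrays share their scaling. The 21 contractile pairs had a median r of 0.50, with 19 above 0. Acta2 and Actg2 had an r of 0.79, Acta2 and Cnn2 0.77, Tagln and Cnn1 0.75. Mylk and Myh11 had an r of 0.60 with each other, and Mylk had -0.12 to 0.21 with the other 5 contractile genes. The 3 mural pairs ran from 0.14 to 0.49. The 21 pairs of a contractile and a mural gene had a median of 0.00, with Mylk and Mcam at 0.62 and Actg2 and Abcc9 at -0.47.

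**Figure D3:**
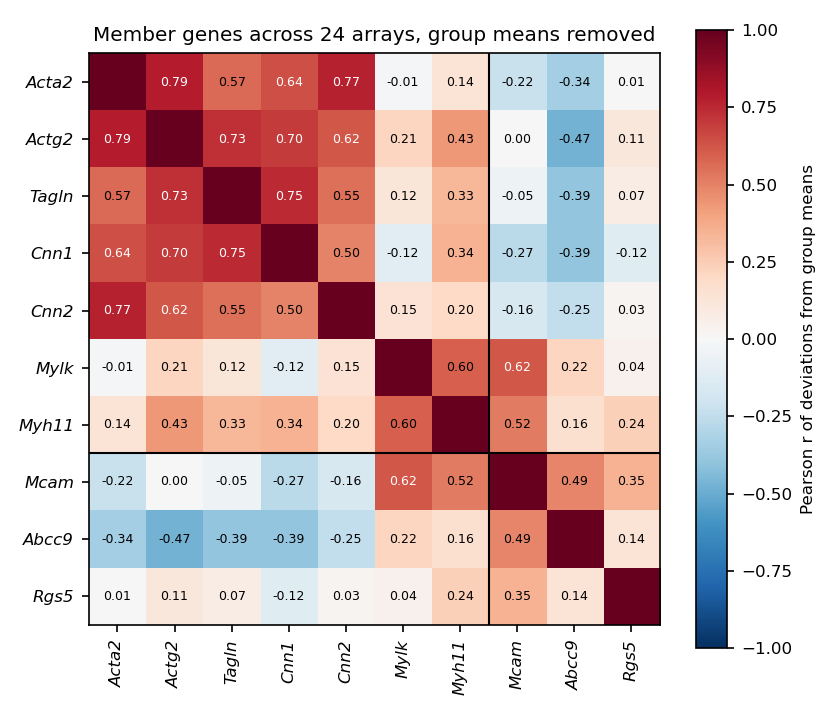
Pearson r between each pair of genes over 24 arrays after each gene's group mean was subtracted; black lines part the 7 contractile genes from the 3 mural genes. Acta2, Actg2, Tagln, Cnn1 and Cnn2 form a block of positive values, and Mylk, Myh11 and Mcam a second one.

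Over the 24 log2 values with the group means kept in, the probe sets most like each gene differed between the members. Mylk was closest to Igfbp4 and Wt1 (r = 0.97 each). Tagln was closest to Ctsh (0.94), Myh11 to Sparc (0.94) and Cnn1 to Cyp7b1 (0.92). Cnn2 was closest to Csrp1 (0.95), a LIM protein of smooth muscle, and to Actn4 (0.94), a non-muscle alpha-actinin. Acta2 was closest to Actn1 (0.83) and Actg2 to Igfbp2 (0.90). Among the mural genes, Mcam was closest to Cox8b (0.91), Abcc9 to Snx10 (0.84) and Rgs5 to Atf3 (0.75). With group means subtracted, r was 0.50 for Mylk with Igfbp4, 0.64 for Tagln with Ctsh and 0.88 for Cnn2 with Csrp1.

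Of 32 listed smooth muscle contractile genes 17 were tested, 11 of them outside the 10 genes followed here. Between days, 1 of these 11 rose in brown cells and 2 in white cells, with 0 lower in each. Calls over the whole array, to set beside the counts of every list, were 12.1% in brown and 19% in white cells. Between brown and white they were 25.2% at day 7 and 23% at day 4. Gucy1b1, a subunit of the nitric oxide receptor, rose by 1.22 ± 0.34 (SE, log2; limma adjusted p = 0.0177) in brown and by 0.97 ± 0.29 (adjusted p = 0.0207) in white cells. In brown cells 5 of the 11 were lower than in white cells at day 7 and 4 at day 4, with 0 higher. Desmin (Des), the muscle intermediate filament, was lower by -1.56 ± 0.44 at day 7 (adjusted p = 0.00982), and smoothelin (Smtn), a protein of contractile smooth muscle, by -1.54 ± 0.44 at day 4 (adjusted p = 0.0119). Csrp1, Myl9 and Tpm1 were lower on both days, by -0.99, -0.78 and -0.57 at day 7 and -0.95, -0.74 and -0.43 at day 4. These 3 genes were named after their values were seen. The median over the 11 was -0.51 at day 7 and -0.17 at day 4. Once the Gapdh ratio was in the fit, 0 of the 11 passed in limma between days in white cells, against 2 without it, and 1 (Csrp1, adjusted p = 0.0316) between brown and white at day 7, against 5.

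Of 19 listed pericyte and mural genes 10 were tested, 7 of them outside the genes followed here. Rgs2, a relative of Rgs5, rose by 2.14 ± 0.38 (SE, log2; limma adjusted p = 0.000557) in brown and by 1.57 ± 0.32 (adjusted p = 0.0016) in white cells. Mgp, a matrix inhibitor of calcification, rose by 1.27 ± 0.36 (adjusted p = 0.02) in brown and by 1.37 ± 0.31 (adjusted p = 0.00313) in white cells. Vtn, which encodes vitronectin, rose by 1.39 ± 0.39 in white cells (adjusted p = 0.0136). These made up the 2 and 3 genes of the 7 that rose, with 0 lower. In white cells 0 of the 3 passed with the Gapdh ratio in the fit, with adjusted p of 0.393 for Rgs2, 0.0814 for Mgp and 0.282 for Vtn in limma.

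The receptor of the pericyte growth factor PDGF-B went the other way from Mcam, Abcc9 and Rgs5 between cell types. Pdgfrb was lower in brown cells by -1.37 ± 0.28 at day 7 (SE, log2; limma adjusted p = 0.000612) and by -1.18 ± 0.26 at day 4 (adjusted p = 0.00164). Angpt1, the Tie2 ligand that pericytes secrete, was higher in brown cells at day 7 by 1.05 ± 0.34 (adjusted p = 0.0234), and Notch3, a receptor of mural cells, by 0.77 ± 0.29 (adjusted p = 0.0488). Fitted with the Gapdh ratio, the day 7 differences were -0.74 for Pdgfrb (adjusted p = 0.465), 0.23 for Angpt1 (adjusted p = 0.901) and 1.67 for Notch3 (adjusted p = 0.0408). Notch3 was named after its values were seen.

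Of 26 listed genes for control by serum response factor, myocardin and TGF-beta, 17 were tested. Between days 1 rose in brown and 4 in white cells, with 0 lower. Of all probe sets tested, 6% rose in brown and 8.36% in white cells. Fhl1, a LIM protein of muscle, rose in both, by 0.82 ± 0.16 (SE, log2; limma adjusted p = 0.00158) in brown and 0.97 ± 0.14 (adjusted p = 7.95e-05) in white cells. Against white cells, brown cells had 2 higher and 4 lower at day 7, and 1 higher and 3 lower at day 4. Shares of the whole array were 12.8% higher and 12.3% lower at day 7, and 10.8% and 12.2% at day 4. Mrtfa, a coactivator of serum response factor, was lower in brown cells by -0.91 ± 0.17 at day 7 (adjusted p = 0.000236) and by -0.65 ± 0.16 at day 4 (adjusted p = 0.00355). Tgfb1, the ligand TGF-beta 1, was higher in brown cells by 2.02 ± 0.43 at day 7 (adjusted p = 0.00104) and by 1.54 ± 0.40 at day 4 (adjusted p = 0.00658). Klf4, a repressor of smooth muscle genes, was lower in brown cells at day 4 by -1.12 ± 0.23 (adjusted p = 0.000819). Once the Gapdh ratio was in the fit, 0 of the 17 passed in limma between days in white cells, against 4, and 0 between brown and white at day 7, against 6, with adjusted p of 0.0791 for Mrtfa and 0.151 for Tgfb1. Fhl1 and Mrtfa were named after their values were seen. Srf and Myocd were not analysed here.

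Both striated muscle actins had a probe set that was higher in brown than in white cells on both days. Acta1, skeletal muscle actin, was higher in brown than in white cells by 0.91 ± 0.31 at day 7 (SE, log2; limma adjusted p = 0.0323) and by 3.55 ± 0.29 at day 4 (adjusted p = 7.18e-10). It fell by 1.55 in brown cells (adjusted p = 0.00217) and rose by 1.10 in white cells (adjusted p = 0.00676), and this difference between cell types passed (-2.64 ± 0.42, adjusted p = 0.00213). On 1 of its probe sets (101028_i_at) Actc1, cardiac actin, was higher in brown cells by 2.86 at day 7 (adjusted p = 7.45e-08). At day 4 it was higher by 4.52 (adjusted p = 2.76e-12). On that probe set 3 of 6 white day 7 and 5 of 8 white day 4 arrays lay under the floor. Both sizes therefore depend on the floor. The other, a family probe set (101029_f_at), was -0.42 at day 7 (adjusted p = 0.156) and 0.79 at day 4 (adjusted p = 0.00525). Of the cytoplasmic actins, Actg1 passed in 0 of the 5 comparisons, and the 2 Actb probe sets disagreed at day 7. Brown against white was -1.22 (adjusted p = 4.7e-05) on a family probe set (101578_f_at) and -0.22 (adjusted p = 0.368) on the other (95705_s_at). Cnn3, the third calponin, was lower in brown cells by -0.48 at day 7 (adjusted p = 0.0045) and -0.63 at day 4 (adjusted p = 0.000234). It too was read from a family probe set (160150_f_at). Tagln2, a transgelin of many cell types, was higher in brown cells at day 7, by 0.63 (adjusted p = 0.00391). In the fit with the Gapdh ratio, the day 7 calls of Acta1 (adjusted p = 0.899), Actb (adjusted p = 0.15), Cnn3 (adjusted p = 0.267) and Tagln2 (adjusted p = 0.648) and the white call of Acta1 (adjusted p = 0.0854) were lost. Those of Actc1 at day 7 (101028_i_at, adjusted p = 0.00165) and of Acta1 in the difference between cell types (adjusted p = 0.0177) were kept.

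All 11 listed fibroblast markers were tested, and 8 were lower and 1 (Thy1) higher in brown than in white cells on each day. Between days 6 rose and 1 fell in brown cells, and 4 rose and 1 fell in white cells. Their summed signal was 17434 to 27325 in brown day 7, 14662 to 16902 in brown day 4, 36735 to 44440 in white day 7 and 24261 to 42328 in white day 4 arrays. In the fit with the Gapdh ratio, 2 of the 11 passed between brown and white at day 7, against 9, and 0 between days in white cells, against 5. The summed signal of the 17 contractile genes tested was 8205 to 11633 in brown day 7, 7252 to 9609 in brown day 4, 13367 to 19853 in white day 7 and 11186 to 17672 in white day 4 arrays. That contractile sum includes Acta2, Actg2, Tagln, Cnn1, Mylk and Myh11, so it is not independent of their results above. Median signals of Acta2, Tagln and Mylk were 2877, 3418 and 2145 in white day 7 arrays, where the median contractile sum was 17646.5. In brown day 7 arrays they were 1911, 1618 and 582, with a median sum of 9477. Within groups the contractile and fibroblast sums did not always go together. White day 7 arrays 43 and 44 had the 2 lowest of both sums in their group. Brown day 7 array 22 had the highest contractile sum of its group and the lowest fibroblast sum. White day 4 array 45 had the highest contractile sum of its group with a fibroblast sum of 25431, and array 34 the highest fibroblast sum with a contractile sum of 13362. Col1a1, a defining fibroblast collagen, was above the floor on all arrays. The part of fibroblasts in the differences of the contractile genes was not tested. Other lists showed 3 of 8 tested macrophage markers lower in brown cells on each day, and 5 and 7 of 10 tested adipocyte markers higher at day 7 in brown and white cells. Fitted with the Gapdh ratio, 2 of the 8 macrophage markers passed between brown and white at day 7, against 3. Of the 10 adipocyte markers 0 passed in that fit between days in white cells, against 7.

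**Figure D4:**
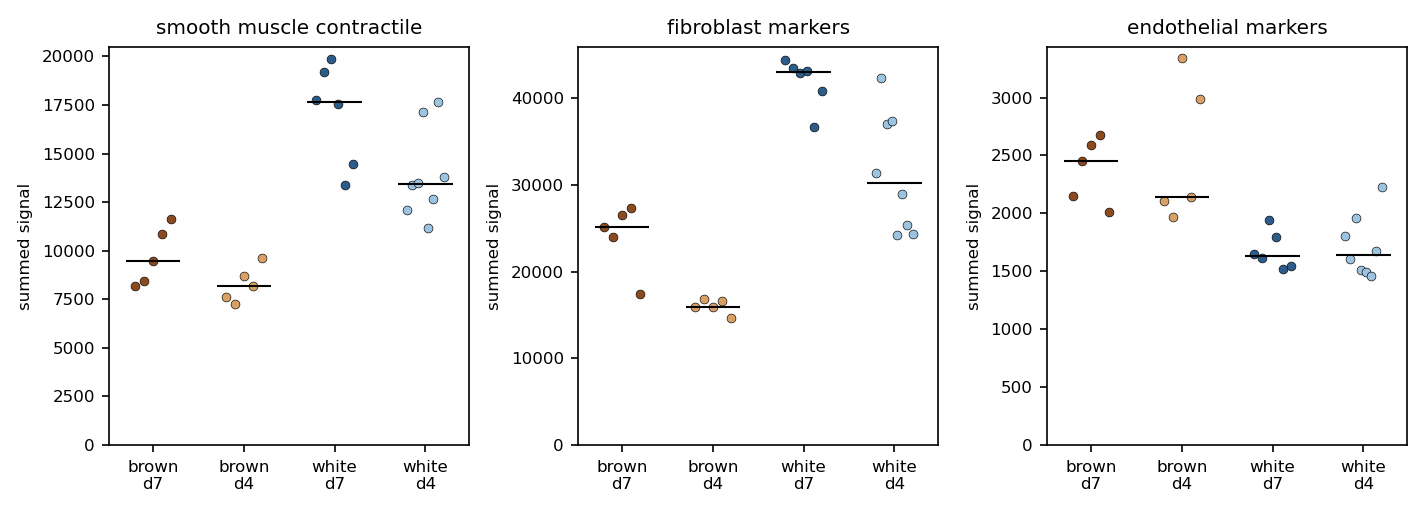
Summed signal per array of the 17 tested smooth muscle contractile genes (Acta2, Actg2, Tagln, Cnn1, Mylk and Myh11 included), the 11 fibroblast markers and the 10 tested endothelial markers, with the group median as a line and axes from 0. Every brown array lies below every white array of the same day in the contractile and fibroblast panels, while in the endothelial panel the brown day 7 arrays lie above the white day 7 arrays.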

How the data were processed

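Expression was measured on 24 Affymetrix U74Av2 arrays, 1 per sample, grouped by cell type and day from their labels. The values the authors deposited are linear signal intensities per probe set, and the submitters' processing notes name MAS5, with no version in the sources used here. The deposited arrays had 2% trimmed means of 150.094 to 150.117 and medians of 41.9 to 59.0. Their number limits the precision.

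Each array was scaled to a trimmed mean of 150, signals under the 20th percentile of all values (8.21) were raised to it, and log2 values were computed. The 66 control probe sets were left out, and probe sets above the 40th percentile of their array on at least 5 arrays were kept (8397, with 1.56% of values at the floor). The 4 group means were fitted with limma 3.58.1 (lmFit, eBayes with an intensity trend, 20 residual degrees of freedom) in R 4.3.3. Tests were two-sided, with Benjamini-Hochberg adjustment over all 8397 probe sets within each of 5 contrasts and a threshold of 0.05. The scripts were tested on simulated data. Values after ± are standard errors unless SD is written.

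The platform annotation, possibly outdated, supplied the symbols: 10855 probe sets had 1 symbol, 396 several and 1237 none. By identifier 10839 were matched to the RefSeq gene table, which changed 0 symbols. Promoter windows came from RefSeq (GRCm38.p6). All 10 genes were named. A listed gene outside them could be named where its probe set of highest mean signal passed with a log2 difference of at least 1, at most 8 per list. The macrophage and adipocyte lists were summarised by counts, and an unnamed listed gene may also have met this rule. The other tested actins, calponins and transgelins were named in any case. Of the probe sets most like each member the closest was named, and for Mylk and Cnn2 the next as well. The members and lists were chosen with earlier results of these data known. Alternatives changed the floor, normalization, filter, fit, weights, covariate, block and arrays used.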

Additional observations from a re-analysis of the deposited data

How the results depend on the processing

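Under the alternatives, 1250 results of single genes were recomputed. Of these 1177 kept their direction and their side of the threshold, 34 lost a call, 20 gained one and 0 called results reversed, while 19 results with no call changed sign. Tagln, Mylk, Mcam and Abcc9 between days in brown cells, Tagln, Cnn1, Cnn2 and Mylk between brown and white at day 4, and Tagln, Cnn1 and Mylk at day 7 were called under every alternative run for them. With the Gapdh ratio in the fit, the count of called genes was 0 between days in white cells, against 4 without it, and 4 between brown and white at day 7, against 9. The ratio moves with white day 7, so the covariate and that group are partly confounded. The interaction count was 1 (Abcc9) with the floor at the 40th percentile (1.17, limma adjusted p = 0.00501), with array weights (1.71, adjusted p = 0.0131) and with sets of array numbers as a random block (1.47, adjusted p = 0.0478), against 0. The adjusted p of Abcc9 there ran from 0.00501 to 0.307 over all 33 alternatives, and the cause was not tested. Its lowest value came with the floor at the 40th percentile, which narrows the spread of Abcc9 in the groups with low signals.

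Leaving out each array in turn gave 5 to 6 called genes between days in brown cells and 3 to 4 in white cells. Between brown and white it gave 5 to 6 at day 4 and 7 to 10 at day 7, with 0 in the interaction. Over the whole array these fits called 672 to 1170 probe sets between days in brown cells, against 1012 with all arrays. In white cells they called 1134 to 1910, against 1595. Between brown and white they called 1548 to 2150 at day 4, against 1933, and 1713 to 2040 at day 7, against 2112. In the interaction they called 7 to 23, against 18. Over the whole array, calls between days were 1665 with array weights in brown cells, against 1012, and 1046 in white cells without white day 4 arrays 45 and 51, against 1595. Over all alternatives, interaction calls ran from 5 to 45, against 18. The consensus correlation within the sets of array numbers, a division chosen by the analysis, was 0.20. The groups share no replicate numbers, so no block by replicate number could be fitted. Signals near the floor limit the precision of the folds of Abcc9 and Rgs5, and of Myh11 and Cnn1 where brown day 4 is compared. The same holds for 1 Actc1 probe set (101028_i_at) in white cells. For Cnn1 the difference between days in brown cells ran from 0.75 to 1.47 (log2) over the alternatives.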
